A study of Mus musculus with 4 samples.

Results

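The 8 genes described here encode the PCGF and RING subunits of polycomb repressive complex 1 (PRC1): Ring1, Rnf2, Bmi1, Pcgf1, Pcgf2, Pcgf3, Pcgf5 and Pcgf6. They were taken as every probe whose gene symbol in the authors' annotation was one of these names, which gave 13 of 55677 probes, for 8 of the 24287 gene symbols on the array. RNA of sorted mouse LSK cells was hybridised to 4 Agilent arrays read in 1 colour. LSK cells (negative for lineage markers, positive for Sca-1 and c-Kit) are the marrow fraction in which blood stem cells and early progenitors lie. The groups were LSK cells labelled EZH1 knockout (2 arrays) and LSK cells labelled control (2 arrays), all from C57Bl/6J mice. Neither the genotype of the controls nor the deleted part of Ezh1, nor whether animals were pooled, is given in the sources used here. The question of the design is what differs between LSK cells with and without EZH1, an enzyme of polycomb repressive complex 2 (PRC2).

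PRC1 adds a single ubiquitin to histone H2A. Its catalytic core pairs a RING E3 ligase, RING1 or RNF2 (also named RING1B), with a PCGF protein, and the PCGF protein decides which other subunits join. BMI1 and PCGF2 form canonical PRC1 with CBX and PHC proteins, where CBX proteins bind the histone methylation that PRC2 lays down. The other PCGF proteins form variant complexes with RYBP or YAF2 that do not need that mark for recruitment. In blood, BMI1 is known for sustaining the self-renewal of stem cells through repression of the Ink4a/Arf locus.

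All 8 genes were measured. Of the 13 probes 12 were above the 20th percentile of intensity on all 4 arrays, the limit used here for detection, and were tested. The exception was the dimmer of 2 Pcgf2 probes. The limit differed between arrays: it was an intensity of 22.8 and 87.3 in knockout cells and 12.4 and 57.6 in control cells. Levels are given as intensity, as log2 intensity relative to the array's own 75th percentile (scaled log2 level), and as log2 fold change of knockout over control. Intensities of different probes cannot be ranked against each other, so no order of abundance among the genes is given. The 75th percentile was 1095 and 1690 in knockout cells and 1594 and 1531 in control cells, and the median intensity was 210 and 422 in knockout cells and 254 and 340 in control cells. The first knockout array was thus the dimmest of the 4 at both points, and raw intensities must be read with the scaled values. The number of amplification cycles before labelling is listed as 16, 16, 19 and 18 with no array named. If that listing follows the order of the samples, both knockout arrays had fewer cycles than both controls, and cycle number and group cannot be told apart.

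The pattern was one of lower values for Rnf2 and for 3 of the PCGF genes of variant complexes. Values were near 0 for Bmi1, Pcgf2 and Pcgf1, and the interval of Bmi1 was the widest of the 8 genes. No gene passed the test, and every interval included 0. By their brightest probe, 6 genes were lower and 2 higher in knockout cells, and their median was -0.32 (log2 fold change), where all 43759 tested probes had a median of 0.09. Both knockout arrays lay below both controls for 3 genes (Rnf2, Pcgf5 and Pcgf6), and for none did both lie above. The background for such lower values without overlap was 19.5% of all tested probes (19.4% for higher values) and 27.9% (16.5% for higher values) of the 19478 tested probes within the same range of signal as the 8 genes. A lower mean in knockout cells was seen for 44.2% of all tested probes and for 57.5% of those in that range, which had a median log2 fold change of -0.09. A count of 3 in 8 is therefore close to the background. With limma and Benjamini-Hochberg adjustment over all tested probes, 0 of the 12 member probes were called, as were 0% of all tested probes. At an unadjusted p under 0.05 there were 0 member probes, against 5.74% of all tested probes and 4.82% of those in the same range of signal. An equal-variance test per probe called 0 member probes as well.

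**Figure D1:**
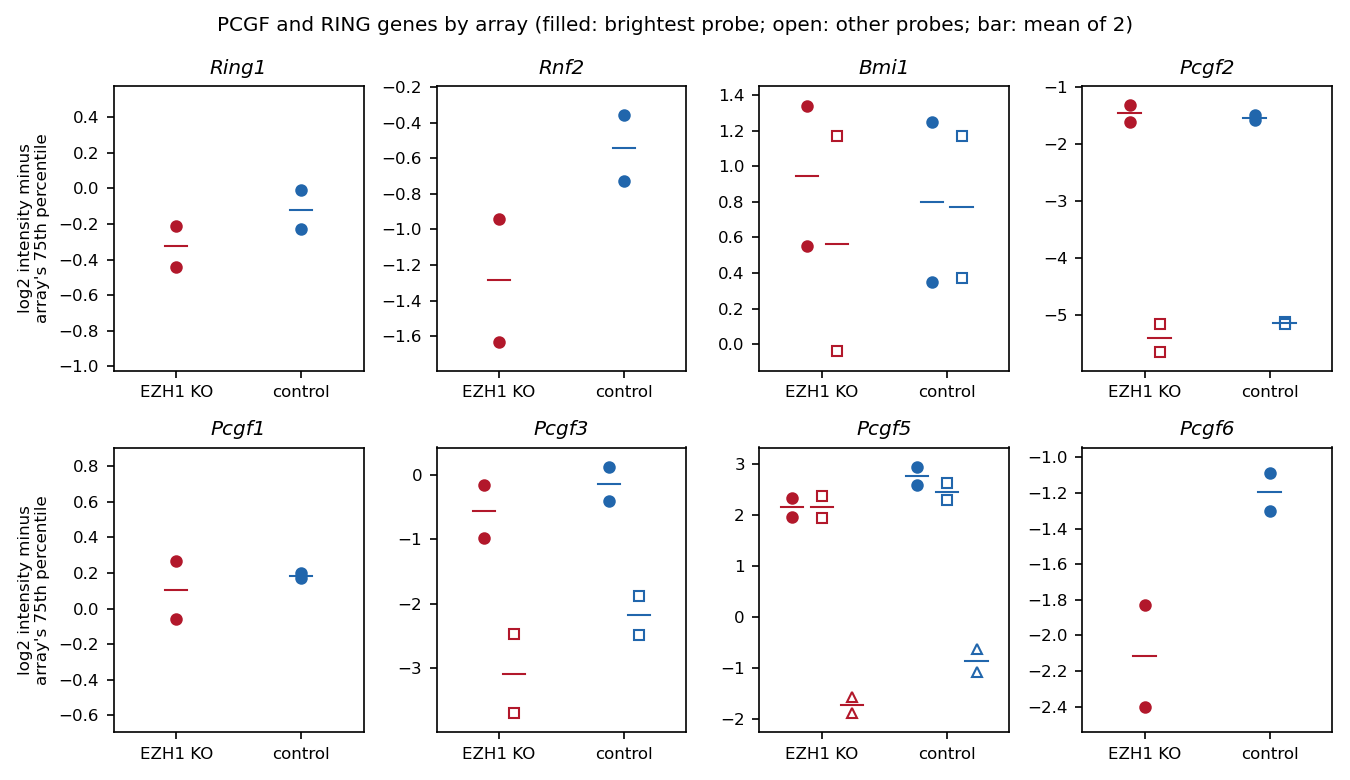
Scaled log2 level (log2 intensity minus the array's 75th percentile) of each gene on the 2 EZH1 knockout arrays (red, left) and the 2 control arrays (blue, right), with filled symbols for the brightest probe, open symbols for other probes and bars for means of 2; the vertical range differs between panels. Knockout and control points of the brightest probe are apart for Rnf2, Pcgf5 and Pcgf6 and overlap for the other 5 genes.

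Ring1 and Rnf2 encode the alternative E3 ligases, of which RNF2 is the main one in many mouse cells. Rnf2 had intensities of 572.5 and 547.3 in knockout cells, against 1238 and 924.2 in control cells. Its scaled log2 level was -1.28 ± 0.49 in knockout cells and -0.55 ± 0.26 in control cells (SD, n = 2 each). Both knockout arrays were below both controls, although the nearest arrays of the groups lay closer to each other than the knockout arrays did among themselves. The log2 fold change of Rnf2 was -0.73 (1.66-fold lower; 95% interval -1.80 to 0.33; limma adjusted p = 0.78).

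Ring1, the paralogue, had a smaller difference. Its intensities were 944.4 and 1246 in knockout cells and 1585 and 1306 in control cells, which is -0.21 and -0.44 against -0.01 and -0.23 on the scaled log2 axis. The groups overlapped, and the log2 fold change was -0.21 (95% interval -0.98 to 0.57). The ratio of Ring1 to Rnf2 within an array does not depend on the scaling between arrays, and only its difference between groups can be read, since the probes differ. That log2 ratio was 0.72 and 1.19 in knockout cells and 0.36 and 0.50 in control cells, a difference of 0.53, or a 1.44-fold higher ratio in knockout cells. The arrays did not overlap, and the exact two-sided permutation test gave p = 0.333, the smallest that 2 arrays against 2 allow.

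Bmi1 and Pcgf2 (also known as Mel18) encode the PCGF proteins of canonical PRC1. The brighter Bmi1 probe had intensities of 2766 and 2480 in knockout cells, against 3804 and 1945 in control cells. The spread within each group was far larger than the difference between them: the scaled log2 level was 0.94 ± 0.55 in knockout cells and 0.80 ± 0.64 in control cells (SD, n = 2 each), with replicate 1 the higher array in both groups. The log2 fold change of Bmi1 was 0.14, with an interval from -1.28 to 1.57 that is wide in both directions. The second Bmi1 probe, annotated to the same transcript, had scaled log2 levels of 1.17 and -0.04 in knockout cells and 1.17 and 0.37 in control cells, and gave a log2 fold change of -0.21. The direction of Bmi1 is therefore not settled by its own probes.

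Pcgf2 was measured more evenly. Its brighter probe had intensities of 360 and 681 in knockout cells and 566.7 and 511.2 in control cells, which is -1.60 and -1.31 against -1.49 and -1.58 on the scaled log2 axis. The control arrays lay between the knockout arrays, and the log2 fold change was 0.079 (95% interval -0.69 to 0.85). The dimmer Pcgf2 probe, detected on 1 of 4 arrays, had intensities of 22 and 47.6 in knockout cells and 45.7 and 42.8 in control cells and was not tested. The log2 ratio of Bmi1 to Pcgf2 within an array was 2.94 and 1.86 in knockout cells and 2.75 and 1.93 in control cells, so the balance between them differed by 0.07 (exact two-sided permutation p = 1).

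The promoter windows of these genes are shown because Bmi1 and Pcgf2, the pair of canonical PCGF genes, share motifs that the other windows read here lack. A link between these motifs and the log2 fold changes was not tested. Windows were taken from RefSeq (build GRCm38.p6), as the 250 bases before the annotated start, for 7 of the 8 genes (9 windows, since Pcgf5 has 3 starts). Pcgf1 is named only. The motifs were chosen after the windows had been read, so the sharing is a description. Capitals mark 2 motifs, searched on both strands: the E-box CACGTG, the sequence bound by MYC, MAX and related factors, and GCCATNTTG, the core bound by YY1. They do not overlap in either window.
Bmi1, chr2:18676768-18677017, plus strand: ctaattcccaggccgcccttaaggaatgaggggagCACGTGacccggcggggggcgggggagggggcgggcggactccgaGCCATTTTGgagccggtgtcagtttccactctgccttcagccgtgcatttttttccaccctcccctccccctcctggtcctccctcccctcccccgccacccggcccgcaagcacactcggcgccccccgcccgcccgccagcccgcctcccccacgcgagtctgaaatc
Pcgf2, chr11:97699649-97699898, minus strand: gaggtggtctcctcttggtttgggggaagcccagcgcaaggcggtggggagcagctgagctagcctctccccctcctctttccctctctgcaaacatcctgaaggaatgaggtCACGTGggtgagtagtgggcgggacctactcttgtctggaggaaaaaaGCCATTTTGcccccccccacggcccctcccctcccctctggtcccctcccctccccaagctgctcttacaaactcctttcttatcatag
Pcgf6, chr19:47050907-47051156, minus strand: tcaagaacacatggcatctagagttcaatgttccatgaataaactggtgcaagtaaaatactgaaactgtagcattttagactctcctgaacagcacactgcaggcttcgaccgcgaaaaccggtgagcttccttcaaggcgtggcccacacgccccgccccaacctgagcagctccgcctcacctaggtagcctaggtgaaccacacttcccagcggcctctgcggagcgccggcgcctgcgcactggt
Rnf2, chr1:151500992-151501241, minus strand: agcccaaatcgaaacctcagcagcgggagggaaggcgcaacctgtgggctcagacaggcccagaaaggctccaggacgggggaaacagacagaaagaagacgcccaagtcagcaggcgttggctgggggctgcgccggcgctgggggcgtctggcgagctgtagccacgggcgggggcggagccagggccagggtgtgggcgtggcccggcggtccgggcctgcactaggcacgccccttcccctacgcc

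In the Bmi1 window the E-box began 215 bases and the YY1 motif 170 bases before the start, and in the Pcgf2 window 137 and 89 bases before it. Among all 32851 RefSeq windows of the same length, 6.02% hold the E-box, 1.33% the YY1 motif and 0.158% both. The Bmi1 window has 21 CpG pairs and the Pcgf2 window 5, where the median of all windows is 6. No match of either motif was found in the windows of Pcgf3, Pcgf5, Pcgf6, Ring1 and Rnf2, those of Pcgf6 and Rnf2 being printed above, which says only that these letters are not there. The GC box GGGCGG was in 7 of the 9 windows and in 32.7% of all windows. The E2F-type motif GGCGGGAA was in 1 of the Pcgf5 windows and in 1.86% of all windows. Except for a Pcgf5 window at 45.6%, the member windows had 56% to 78% GC, where the median of all windows was 52.4%. The counts were not adjusted for this.

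Pcgf6 encodes the subunit that joins the E-box binding protein MGA and E2F6 in a variant complex known for silencing germline genes. It had the lowest log2 fold change of the 8 genes. Its intensities were 307.3 and 319.6 in knockout cells, against 746.5 and 623.7 in control cells. The scaled log2 level was -2.12 ± 0.40 in knockout cells and -1.20 ± 0.14 in control cells (SD, n = 2 each), with both knockout arrays below both controls. The log2 fold change was -0.92 (1.9-fold lower; 95% interval -1.86 to 0.015), at the 2.4th percentile of all tested probes. The unadjusted p was 0.0523 and the limma adjusted p 0.78. The authors' deposited table gives Pcgf6 a ratio of 1.89, down, with a p-value of 0.0925.

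Pcgf5 and Pcgf3 encode closely related subunits of complexes that hold AUTS2 or FBRS and that, in mouse, take part in X-chromosome inactivation. Pcgf5 had 3 tested probes, all lower in knockout cells. The brightest had intensities of 5529 and 6557 in knockout cells and 12303 and 9221 in control cells, and its scaled log2 levels of 2.34 and 1.96 lay below the control levels of 2.95 and 2.59. Its log2 fold change was -0.62 (1.54-fold lower; 95% interval -1.51 to 0.26). A second probe for the same transcript had scaled log2 levels of 2.38 and 1.95 in knockout cells and 2.62 and 2.30 in control cells. These overlapped, and its log2 fold change was -0.30. The dimmest Pcgf5 probe, designed to a cDNA clone, had intensities of 369.1 and 459.7 in knockout cells and 1033 and 727.2 in control cells. It did not overlap between groups and had a log2 fold change of -0.87 (95% interval -1.77 to 0.025), with an unadjusted p of 0.054 and a limma adjusted p of 0.78. The Pcgf5 probes thus shared a direction and differed in size.

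Both Pcgf3 probes were lower as well, but their arrays overlapped. The brighter had intensities of 986 and 855.6 in knockout cells and 1745 and 1156 in control cells, with a scaled log2 level of -0.57 ± 0.59 in knockout cells and -0.14 ± 0.38 in control cells (SD, n = 2 each). Its log2 fold change was -0.43 (95% interval -1.67 to 0.81). The dimmer Pcgf3 probe, designed to a cDNA clone, had scaled log2 levels of -2.47 and -3.70 in knockout cells and -1.88 and -2.48 in control cells, for a log2 fold change of -0.90 with an interval from -2.49 to 0.68. The value of the brighter probe depended on single arrays: its log2 fold change was -0.01 without knockout replicate 2, -0.84 without knockout replicate 1, -0.16 without control replicate 1 and -0.70 without control replicate 2.

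Pcgf1 encodes the subunit of the BCOR and KDM2B complex, which binds unmethylated CpG islands. Its single probe had intensities of 1318 and 1620 in knockout cells and 1792 and 1755 in control cells. The scaled log2 levels of 0.27 and -0.06 in knockout cells enclosed the control levels of 0.17 and 0.20. The log2 fold change of Pcgf1 was -0.079 (95% interval -0.86 to 0.70), the value nearest to 0 together with that of Pcgf2.

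**Figure D2:**
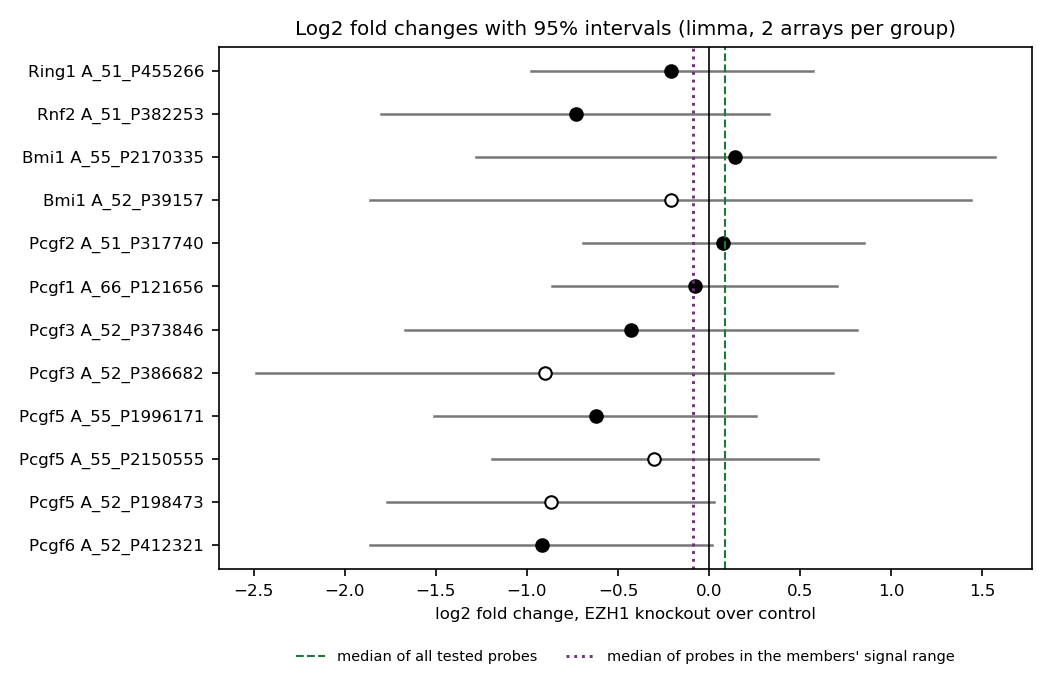
Log2 fold change (horizontal axis, knockout over control) of the 12 tested probes with 95% intervals from limma, 2 arrays per group; filled points are each gene's brightest probe, and the vertical lines mark 0 and the medians of all tested probes (0.09) and of probes in the same signal range (-0.09). Every interval includes 0, and those of Pcgf6 and of the dimmest Pcgf5 probe reach it by the least, with upper ends of 0.015 and 0.025.

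The balance between the canonical and the variant PCGF genes was compared within arrays, as the mean log2 intensity of Bmi1 and Pcgf2 minus that of Pcgf1, Pcgf3, Pcgf5 and Pcgf6. It was -0.29 and -0.01 in knockout cells, against -0.66 and -0.89 in control cells. Both knockout arrays were above both controls, with a difference of 0.63 in log2, a 1.54-fold higher ratio. No test is given for this sum over members. The difference was 0.48 to 0.77 when any 1 array was left out, although the Bmi1 part of it differed widely between arrays of a group.

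**Figure D3:**
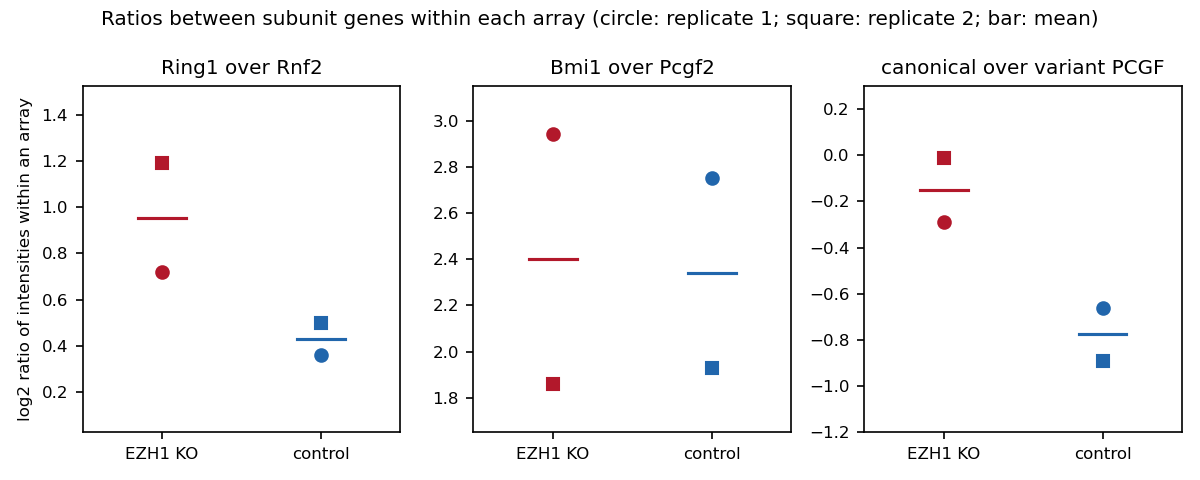
Log2 ratio of intensities within each array (vertical axis) for Ring1 over Rnf2, Bmi1 over Pcgf2, and the canonical over the variant PCGF genes, on EZH1 knockout arrays (red, left) and control arrays (blue, right); circles are replicate 1, squares replicate 2 and bars the means. The first and last ratios were higher on both knockout arrays (differences of 0.53 and 0.63), and the middle one differed by 0.07.

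The other subunits of PRC1 were followed as lists. Of 11 canonical partners (CBX, PHC and SCM-type genes) 7 were lower and 4 higher in knockout cells, where 44.2% of all tested probes had a lower mean. Their median log2 fold change was -0.11. By limma 0 were called and 1 had an unadjusted p under 0.05, against 5.74% of all tested probes. That 1 gene was Cbx8, which encodes a chromodomain subunit. It had intensities of 149.9 and 235.9 in knockout cells and 68.7 and 26.4 in control cells, and was detected on both knockout arrays but on only 1 of the 2 control arrays. It therefore passed the filter through the knockout group, and its fitted log2 fold change of 2.34 (limma adjusted p = 0.78) rests partly on an undetected value. The polyhomeotic gene Phc1 had a log2 fold change of -0.33 by its brighter probe and 0.85 by the other, and the SCM-type genes Scmh1 and Scml4 ones of -0.33 and -0.34.

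Partners of the variant complexes had small differences. Of 23 genes 18 were lower and 5 higher. A lower mean was seen for 44.2% of all tested probes and 57.5% of those in the members' range of signal. Not every partner lay in that range: Tfdp1, for instance, was above it and L3mbtl2 below it. The median of the 23 genes was -0.19 (log2 fold change), and 0 were called by limma (0 at an unadjusted p under 0.05). Both knockout arrays were below both controls for 7 of the 23 and above both for 2. The shares were 19.5% and 19.4% of all tested probes, and 27.9% and 16.5% of those in the members' range. No background was matched to the signal of these 23 genes, so whether 7 in 23 departs from it was not tested. Bcor, the corepressor that joins PCGF1, had intensities of 1510 and 1743 in knockout cells and 3056 and 2388 in control cells, a log2 fold change of -0.54 (95% interval -1.42 to 0.34). Csnk2a2, a catalytic subunit of casein kinase 2, had a log2 fold change of -0.50 by its brighter probe and 0.17 by the other. The probes of Auts2, a partner of PCGF3 and PCGF5, gave log2 fold changes of 0.58, 0.42 and -0.99 from the brightest to the dimmest, and those of Dcaf7, a scaffold protein of the same complexes, 0.65, 0.16 and -0.054. None of these 3 genes has a direction that all its tested probes share. For Auts2 that rests on its dimmest probe alone. This probe was undetected on knockout replicate 2 (intensity 29.4) and passed the filter through the control group. The partners of PCGF6 in this list were looked up after its own values had been seen. By their brightest probe the log2 fold changes were -0.50 for Mga, -0.32 for E2f6, -0.22 for L3mbtl2, -0.18 for Hdac2, -0.16 for Max, -0.094 for Cbx3, -0.022 for Tfdp1, 0.013 for Hdac1 and 0.13 for Wdr5. The arrays did not overlap for Mga and L3mbtl2, they overlapped for the rest of these, and every interval included 0.

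Enzymes that remove ubiquitin from histone H2A, the opposite reaction, had a median log2 fold change of -0.22. By limma 0 of the 6 measured genes were called (0 at an unadjusted p under 0.05). Of the 6 genes 5 were lower, where 44.2% of all tested probes had a lower mean. The exception was Bap1, the catalytic subunit of the polycomb deubiquitinase, with intensities of 2546 and 3963 in knockout cells and 2512 and 1287 in control cells and a log2 fold change of 1.02 (95% interval -0.15 to 2.19). Mysm1, a deubiquitinase needed for blood stem cells in mouse, had -0.37, Usp16 had -0.28 and the cofactor Asxl2 had -0.25 as log2 fold changes.

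Among 12 PRC2 subunits 7 were lower and 5 higher, where 44.2% of all tested probes had a lower mean. Their median log2 fold change was -0.06, and 0 were called by limma (0 at an unadjusted p under 0.05). Jarid2, which can bind ubiquitinated H2A and so links PRC1 to PRC2, had intensities of 2850 and 2697 in knockout cells and 5527 and 4224 in control cells, with a log2 fold change of -0.60 (95% interval -1.67 to 0.46). Mtf2 and Aebp2, also accessory subunits, each had -0.40 by the brighter probe, with 0.29 and -0.39 by the other, and Ezh2 had -0.49. The brightest Ezh1 probe had intensities of 2069 and 3730 in knockout cells and 2658 and 2620 in control cells. Its scaled log2 levels of 0.92 and 1.14 in knockout cells lay above the 0.74 and 0.78 of control cells, a log2 fold change of 0.27 (95% interval -0.47 to 1.01). The other 3 tested Ezh1 probes had log2 fold changes of -0.086, 0.13 and -1.15, and on the last, the dimmest, both knockout arrays lay below both controls (95% interval -3.22 to 0.92). As the deleted part is not known here, these probes do not check the labels, and knockout arrays means throughout the arrays labelled so.

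**Figure D4:**
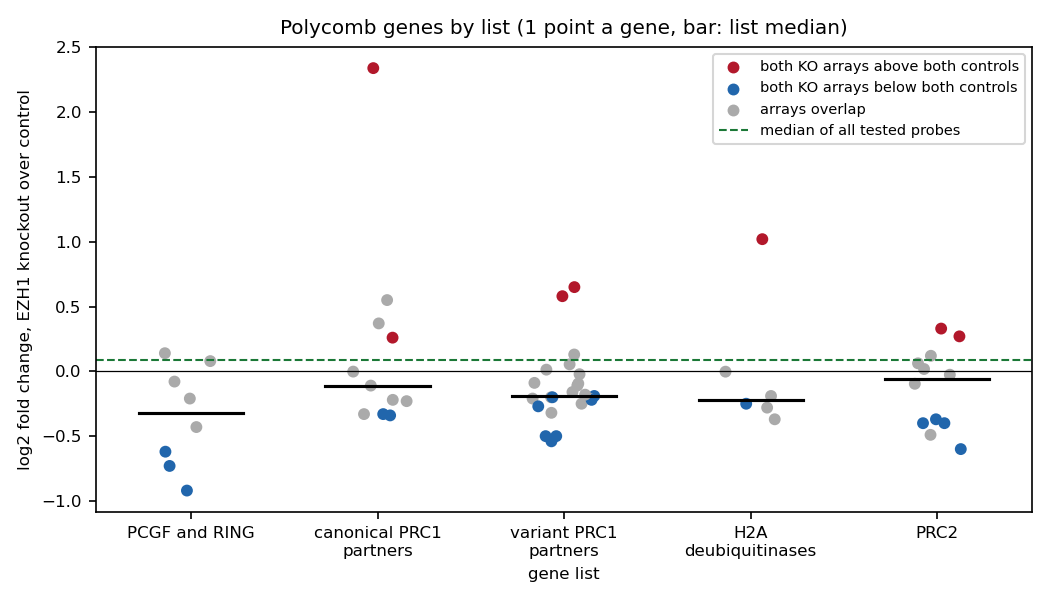
Log2 fold change (vertical axis, knockout over control) of each measured polycomb gene by list, with bars for list medians; red points are genes with both knockout arrays above both controls, blue points both below, grey points overlapping arrays, and the dashed line is the median of all tested probes (0.09). The PCGF and RING genes have a median of -0.32, and the other lists medians between -0.22 and -0.06.

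A list of genes taken here as possible targets of repression by PRC1 was read out beside its subunits. Whether PRC1 represses each of them in LSK cells was not tested. Of the 11 genes listed 6 had a tested probe, 4 higher and 2 lower (median 1.18 as log2 fold change). Of all tested probes, 44.2% had a lower mean. By limma 0 were called, and 3 had an unadjusted p under 0.05, against 5.74% of all tested probes. The median describes those 6 alone, all detected on the 4 arrays. Some were dim in control cells, where the detection limits were 12.4 and 57.6. Bmp2 had control intensities of 34 and 74.5, and its log2 fold change and that of Ebf1 rest on such low values. The B-lineage regulator Ebf1 had intensities of 417.4 and 461.4 in knockout cells and 52.8 and 183.6 in control cells (log2 fold change 2.36). Pax5, which follows Ebf1 in B-cell commitment, had a log2 fold change of 0.95, the ligand Wnt5a one of 1.74 and the ligand Bmp2 one of 1.42. The 2 lower genes were Hoxa9 (-0.29) and Hoxa10 (-0.15). Hoxa9 had intensities of 4135 and 3156 in control cells, so it was not silent there. Cdkn2a, the Ink4a/Arf locus named above, had no probe past the filter, nor had its neighbour Cdkn2b.

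Markers of other cells differed on the same arrays. All 14 neutrophil markers and all 10 B-lineage markers were higher in knockout cells, with median log2 fold changes of 2.30 and 1.53. Of all tested probes, 44.2% had a lower mean in knockout cells. Both knockout arrays lay above both controls for 14 and 9 of these markers, against 19.4% of all tested probes. By limma 13 and 7 had an unadjusted p under 0.05, against 5.74% of all tested probes. Summed as intensity over the array's 75th percentile, the neutrophil markers reached 134 and 116 in knockout cells and 50.2 and 55.5 in control cells, and the B-lineage markers 9.85 and 8.34 against 5.59 and 5.3 in control cells. Mmp9 of the neutrophil list and Ms4a1 of the B-lineage list were undetected on control replicate 2, with intensities of 27.2 and 43.6. Both passed the filter through the knockout group, as did Cd5 and Cd8b1 among the T and NK genes. The directions of these genes rest partly on undetected values. Of the other marker lists, 9 of 10 measured T and NK genes, 5 of 7 monocyte and macrophage genes, 3 of 8 erythroid genes and 2 of 6 megakaryocyte genes were higher, and limma called 0 marker genes. Ebf1 and Pax5 are also members of the B-lineage list. Of 15 LSK markers 12 were lower (median -0.20 as log2 fold change). Slamf1, among the lower ones, was undetected on knockout replicate 2 (intensity 51.9) and passed the filter through the control group. Kit had intensities of 6793 and 8270 in knockout cells and 13819 and 9824 in control cells, and Ly6a (Sca-1) 3700 and 2768 against 2094 and 2484 in control cells. On the scaled axis neither overlapped, with log2 fold changes of -0.44 for Kit and 0.69 for Ly6a. The part of these shifts in the values of the PCGF and RING genes was not tested. In RNA from a sorted bulk population, fewer cells of a type and less RNA per cell cannot be told apart.

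The pattern of Bmi1 over the 4 arrays was compared with that of 13670 named genes detected on all of them, as the root mean square distance after each probe's own mean was taken off. The nearest were Fam178a (distance 0.0396), Mbip (0.0433) and Neil2 (0.048), and 20 genes lay within 0.1. No other PCGF or RING gene was among them: Pcgf3 was nearest at 0.316 and Pcgf6 farthest at 0.594. With 4 arrays, likeness of this kind describes these hybridisations only.

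**Figure D5:**
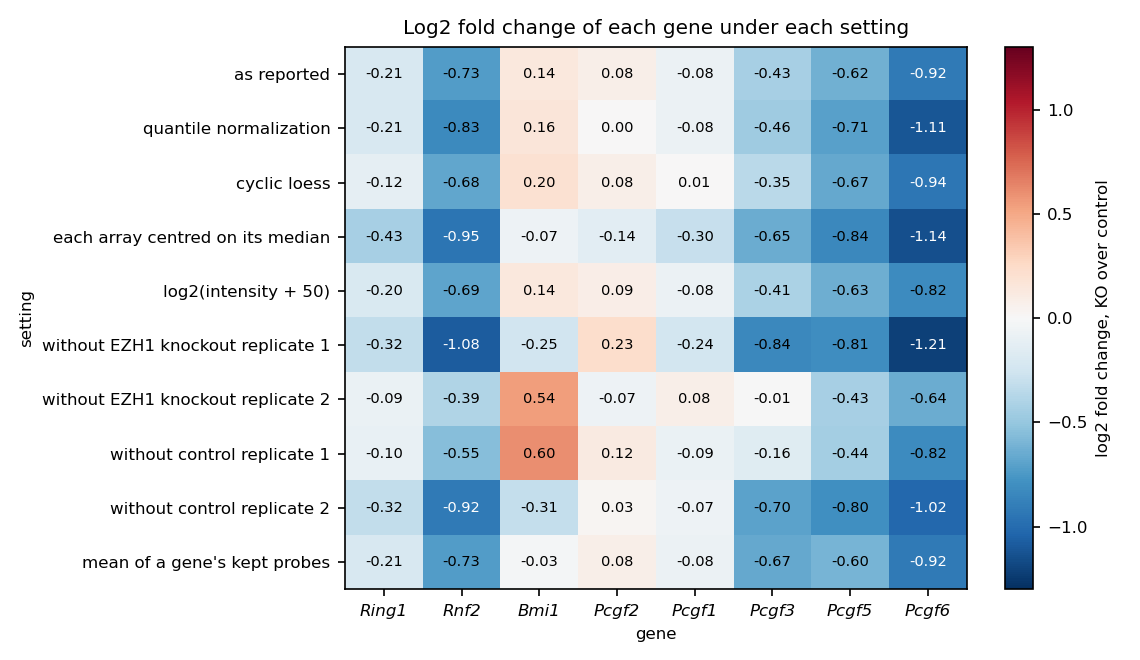
Log2 fold change (colour and printed number, knockout over control) of the 8 genes (columns) under the reported setting and under other scalings, an added offset, left-out arrays and the mean over a gene's probes (rows). Rnf2, Pcgf5 and Pcgf6 stay at or below -0.39 in every row, while Bmi1 runs from -0.31 to 0.60.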

How the data were processed

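Linear intensity values of 4 arrays were deposited by the authors without flags, background or control spots; the submitters' processing notes name Agilent Feature Extraction, with no version. A ratio and a p-value per probe were deposited by the authors in a comparison table, per the file headers, whose test is not named. Per the labels' protocols, 0.1 to 5 ng of RNA were amplified by 16 to 19 cycles, in numbers that differ within the listing and name no array; their part in the group differences was not tested. The deposited value table held 16370 probes, of which 3.73% had their values under their own ID, so the alternative based on it was not run.

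Intensities were converted to log2 and the array's 75th percentile was subtracted. Probes above the 20th percentile on both arrays of a group were kept (43759). The comparison used lmFit and eBayes of limma 3.58.1 under R 4.3.3 (two-sided), with Benjamini-Hochberg adjustment over all kept probes and a threshold of 0.05; the code was tested on simulated data. A gene was represented by its brightest kept probe. Of the 13 member probes 11 matched the RefSeq gene table by accession. Alternatives were other scalings, filters and probe rules, an added offset, an equal-variance test, the replicate number as a block and leaving out each array. Named genes were all members, Ezh1, Ezh2 and up to 4 genes of each polycomb list by smallest unadjusted p. The 3 genes most like Bmi1 were also named. Marker genes taken by the rule are given as counts. Kit, Ly6a, Hoxa9, Hoxa10, the PCGF6 partners and the markers undetected on an array were added outside the rule. Members, lists and tests were chosen with earlier results of these data known. Nothing in the labels ties replicates to separate animals, so the spread behind each p-value may be technical, and 2 arrays per group limit the precision.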

Additional observations from a re-analysis of the deposited data

How the results depend on the processing

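No setting called a member probe or any other probe: both counts were 0 throughout, with a lowest adjusted p of 0.14 over all probes in the equal-variance test, where 2988 probes had an unadjusted p under 0.05. Rnf2, Ring1, Pcgf3, Pcgf5 and Pcgf6 kept their direction under all 12 alternatives run for each gene. Not all of these could change it. The other filters and the replicate block leave a gene's log2 fold change as reported. So does the mean over probes for a gene with a single tested probe, such as Rnf2, Ring1 and Pcgf6. Leaving out 1 array cannot turn Rnf2, Pcgf5 or Pcgf6, whose knockout arrays both lay below both controls. Median centring moved all 8 genes down by the same amount, so it cannot turn a gene that was already lower. Bmi1, Pcgf1 and Pcgf2 changed sign in 9 values. With median centring of the arrays, the shift shared by all members took Pcgf2 to -0.14 and Bmi1 to -0.07. As the mean of its 2 tested probes, which differ in sign, Bmi1 was -0.03. Pcgf2 was -0.0023 after quantile normalization and Pcgf1 was 0.01 with cyclic loess, and why these turned was not tested. With 1 array left out, log2 fold changes ran from -0.31 to 0.60 for Bmi1, -0.24 to 0.08 for Pcgf1 and -0.07 to 0.23 for Pcgf2; Bmi1 turned without knockout replicate 1 (-0.25) or control replicate 2 (-0.31), and Pcgf1 (0.08) and Pcgf2 (-0.07) without knockout replicate 2. The median of the 8 genes ran from -0.57 to -0.08 in the same way. Ring1 over Rnf2 ran from 0.29 to 0.76, and Bmi1 over Pcgf2 from -0.47 to 0.60. Median centring moved the median of all tested probes to -0.13, against 0.09 as reported; relative to it the members' median was -0.41 under both, -0.26 after quantile normalization and -0.22 with cyclic loess. Arrays of the same replicate number deviated from their group means together (Pearson's r = 0.69 across probes, which are not independent), and 6 of the 8 genes were higher on replicate 1 in both groups, but nothing in the labels pairs them. With the replicate number as a block the limma counts stayed at 0 (lowest adjusted p 0.206). In that fit 5 of 12 member probes, against 0 as reported, were among the 9158 of 43759 at an unadjusted p under 0.05. Without the block, 2 of 12 member probes were under 0.05 when only probes detected on all 4 arrays were tested. In that setting 2481 of all 39025 probes were under 0.05. Signal over background is unknown, which limits the dim Pcgf2 probe most.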
